A study of Mus musculus with 63 samples.

Results

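The genes described here are 9 homeostatic microglia genes, P2ry12, Tmem119, Fcrls, Cx3cr1, Csf1r, Aif1, Trem2, Tyrobp and Olfml3, chosen by name from the 55291 gene symbols of the count tables. All 9 had counts in every one of 63 RNA-seq libraries from mouse entorhino-hippocampal slice cultures, and all 9 passed the filter on low counts in every comparison. Cultures were made at postnatal days 3 to 5 from C57BL/6J mice (Synpo+/+) or from B6.129-Synpotm1Mndl/Dllr mice (Synpo-/-), a line bred to lack synaptopodin, the protein of the neuronal spine apparatus; mice of either sex were used. They matured for at least 18 days in vitro. In the lesioned groups the entorhinal cortex was then cut off (entorhinal cortex lesion, ECL), which removes the perforant path input to the hippocampus, and RNA was taken 3 days later; control cultures were not lesioned.

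In the regional experiment 1 library was made from 1 dissected dentate gyrus (DG) or CA3 area of 1 culture. The 39 regional libraries held 2 CA3 Synpo+/+ control, 3 CA3 Synpo+/+ ECL, 6 CA3 Synpo-/- control, 6 CA3 Synpo-/- ECL, 4 DG Synpo+/+ control, 7 DG Synpo+/+ ECL, 7 DG Synpo-/- control and 4 DG Synpo-/- ECL libraries. In the whole-culture experiment a lysate of several pooled cultures gave an input library and a library of the RNA pulled down with an antibody to synaptopodin (Synpo-coIP). Its 24 libraries were 5 input and 5 coIP each from Synpo+/+ control and Synpo+/+ ECL cultures, and 2 input and 2 coIP from Synpo-/- cultures, whose labels give no lesion state.

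Microglia are the resident macrophages of the brain. In the undisturbed brain they carry a set of genes that other brain cells and most blood-derived macrophages express little or not at all, among them the purinergic receptor P2RY12, the membrane protein TMEM119 and the Fc receptor-like scavenger receptor FCRLS. When axons degenerate, as they do in the outer molecular layer of the dentate gyrus after an entorhinal lesion, microglia in the denervated zone change shape, take up debris and can divide, and P2RY12 is known as a gene that activated microglia turn down.

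Depth and sample checks bore on every value. Total counts were 14055930 to 46043990 in regional and 11601154 to 53682143 in whole-culture libraries, and the smallest single count of any of the 9 genes was 46, for Tmem119. Mitochondrially encoded genes took 6.24% to 13.6% of regional, 1.83% to 3.04% of input and 4.15% to 6.27% of coIP counts. Prox1, the transcription factor that marks dentate granule cells, was at 120.1 to 217 CPM (counts scaled to a common library size) in 21 of 22 DG libraries and at 12.7 to 44.0 CPM in the 17 CA3 libraries, but at 15.5 CPM in DG Synpo+/+ ECL replicate 5. Counts of the members called in edgeR comparisons with that group are therefore also given without it. Its ratios, marker sums, overlaps and further gene lists are given with all libraries only. The genotype labels were not borne out by the level of Synpo RNA, and the protein was not measured in these libraries. Synpo was at 19.1 to 24.4 CPM in DG Synpo+/+ control libraries and at 40.9 to 69.3 CPM in those labelled Synpo-/-. Its medians in input and coIP were 25.9 and 37.7 CPM in Synpo+/+ control pools and 28.3 and 36.1 CPM in Synpo+/+ ECL pools. In pools labelled Synpo-/- both medians were 28.2 CPM, so the pull-down differed between the labels. The sources used here do not give the exons that the allele removes.

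The starts of the genes were read from RefSeq (GRCm38.p6; 250 bases before to 50 after the annotated start), which held 6 of the 9. Fcrls and Aif1, 2 of the 3 genes that rose most in the lesioned DG, are shown with P2ry12, which rose least there. They are shown for the letters GAGGAA, a form of the site that the myeloid factor PU.1 binds. Capitals mark those letters, or their complement TTCCTC where the word lies on the other strand.
Fcrls, chr3:87263475-87263774, minus strand: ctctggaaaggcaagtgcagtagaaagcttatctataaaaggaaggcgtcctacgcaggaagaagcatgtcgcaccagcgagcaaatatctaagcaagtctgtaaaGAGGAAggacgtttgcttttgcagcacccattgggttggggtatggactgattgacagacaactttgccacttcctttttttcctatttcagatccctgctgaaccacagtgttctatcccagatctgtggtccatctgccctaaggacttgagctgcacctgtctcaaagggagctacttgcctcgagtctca
Aif1, chr17:35176003-35176302, minus strand: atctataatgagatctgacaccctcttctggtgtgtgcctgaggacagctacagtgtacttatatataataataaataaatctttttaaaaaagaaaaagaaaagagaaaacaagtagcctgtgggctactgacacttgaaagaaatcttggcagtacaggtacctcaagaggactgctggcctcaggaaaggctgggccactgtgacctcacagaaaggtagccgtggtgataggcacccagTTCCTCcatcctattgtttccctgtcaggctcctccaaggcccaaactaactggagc
P2ry12, chr3:59262936-59263235, minus strand: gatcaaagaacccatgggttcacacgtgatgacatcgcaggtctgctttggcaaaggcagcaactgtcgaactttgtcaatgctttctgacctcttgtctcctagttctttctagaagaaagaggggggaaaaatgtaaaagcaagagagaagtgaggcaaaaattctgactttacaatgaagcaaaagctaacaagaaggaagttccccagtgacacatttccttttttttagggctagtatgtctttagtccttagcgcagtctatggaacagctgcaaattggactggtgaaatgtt

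The word GAGGAA, searched on both strands, stood in 3 of the 6 starts (Fcrls, Aif1 and Trem2) and in 28.3% of all 32851 starts in the table. The longer GAGGAAGT, which contains it, was in 0 of the 6 and in 3.2% of all. Olfml3, the other gene that rose most, held none of the words searched, and neither did P2ry12. The P2ry12 start does hold AAGGAAGT, which shares GGAAGT with GAGGAAGT but was not a word searched. TGTGGT, the RUNX core, was in Fcrls and Cx3cr1 and in 16.8% of all starts, TATAAA was in Fcrls and in 13.6% of all, and GGAA followed by any pair of bases and GAAA, the joint ETS and IRF word, was in 0 of the 6 and in 2.72% of all. A match in so short a window is a description of letters.

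The genes lie on 6 chromosomes in the GENCODE annotation (GRCm38). P2ry12 (chr3:59216272-59262871), Fcrls (chr3:87250758-87263738) and Olfml3 (chr3:103722222-103738001) are on the minus strand of chromosome 3, and Aif1 (chr17:35170991-35176068, minus strand) and Trem2 (chr17:48346401-48354147, plus strand) on chromosome 17. Tmem119 (chr5:113793729-113800516, minus strand), Tyrobp (chr7:30413760-30417585, plus strand), Cx3cr1 (chr9:119901616-120069879, minus strand) and Csf1r (chr18:61100598-61132149, plus strand) stand alone on theirs. Reads were counted over exons without regard to strand, so the exon bases that a gene on the other strand shares, 873 in Csf1r, 78 in Cx3cr1 and 9 in P2ry12, cannot be told apart from the gene's own.

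Per kilobase of annotated exon, Tyrobp stood highest of the 9 in all 39 regional libraries and Aif1 second in all 39. Tyrobp encodes DAP12, the adaptor that signals for TREM2 and other myeloid receptors, and its level was 111 to 334 CPM per kb (median 195). Aif1, which encodes the actin-binding protein IBA1 used to stain microglia, was at 27.4 to 99.1 CPM per kb (median 52.2). Tmem119 was lowest in all 39, at 0.937 to 5.47 CPM per kb (median 3.02). The other 6 had medians between 6.33 CPM per kb for Csf1r and 21.3 CPM per kb for P2ry12. Exon length here is the union of all annotated exons, which lowers the level of genes with rarely used long exons.

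The lesion raised all 9 genes in the DG of Synpo+/+ cultures. Fcrls rose most and P2ry12 least, and for 8 of the 9 the 7 lesioned libraries all lay above the 4 controls. With edgeR (quasi-likelihood F-test, p adjusted over all genes by Benjamini-Hochberg), 9 of 9 were called higher and 0 lower at an adjusted p under 0.05, where 12.2% of 23720 genes tested were called (7.86% higher). Groups did not overlap, with ECL higher, for 7.71% of all genes. When 1 library was left out, 8 to 9 of the 9 were called while the count over all genes ran from 999, without control replicate 4, to 3338, against 2886 with all; it was 1021, 1016 and 1400 without control replicates 2 and 3 and ECL replicate 4.

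Fcrls was at 15.7, 12.3, 12.5 and 14.6 CPM in the DG Synpo+/+ controls and at 37.5 to 48.8 CPM (median 39.9) in the ECL libraries. All 7 lesioned libraries stood above the 4 controls, and the log2 fold change was 1.58 ± 0.12 (SE; 2.99-fold, adjusted p = 1.01e-05). Olfml3, a secreted olfactomedin-family protein, was at 21.4, 16.5, 16.9 and 27.9 CPM in controls and at 49.0 to 72.6 CPM (median 64.3) after ECL, a change of 1.53 ± 0.16 (adjusted p = 5.72e-05). Aif1 was at 44.4, 42.9, 42.0 and 53.6 CPM in controls and at 104 to 152 CPM (median 136) after ECL, a change of 1.51 ± 0.13 (adjusted p = 2.15e-05).

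Tmem119, Cx3cr1 and Csf1r rose less. Tmem119 went from 2.17 to 4.99 CPM in controls to 7.54 to 10.6 CPM, by 1.25 ± 0.21. Cx3cr1, the receptor for the neuronal chemokine fractalkine, went from 25.9 to 34.3 CPM to 51.3 to 62.8 CPM, by 0.92 ± 0.11, and Csf1r, the receptor for CSF1 and IL-34 on which microglia depend for survival, went from 22.9 to 31.6 CPM to 38.3 to 51.7 CPM, by 0.83 ± 0.12. The receptor and adaptor pair moved alike: Trem2, a receptor for lipids and debris, changed by 0.91 ± 0.12 and Tyrobp by 0.94 ± 0.10. Their adjusted p-values were 5.37e-05 to 0.00186 over these 5 genes.

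P2ry12 was at 36.5, 30.0, 36.8 and 52.0 CPM in controls and at 44.4 to 64.3 CPM (median 61.1) after ECL. The groups overlapped, and its change of 0.54 ± 0.16 (adjusted p = 0.037) was lost, at adjusted p-values of 0.0631 to 0.121, when any 1 of 7 libraries was left out: control replicates 1, 2 and 3 or ECL replicates 1, 3, 4 and 6. Without ECL replicate 5, the library low in Prox1, all 9 genes were still called. In that library Tyrobp was at 175 CPM and Fcrls at 43.1 CPM, within the range of the other 6, and Aif1 at 104 CPM, the lowest of the 7. In bulk tissue a higher level may come from more microglia or from more RNA per cell, and these cannot be told apart.

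**Figure D1:**
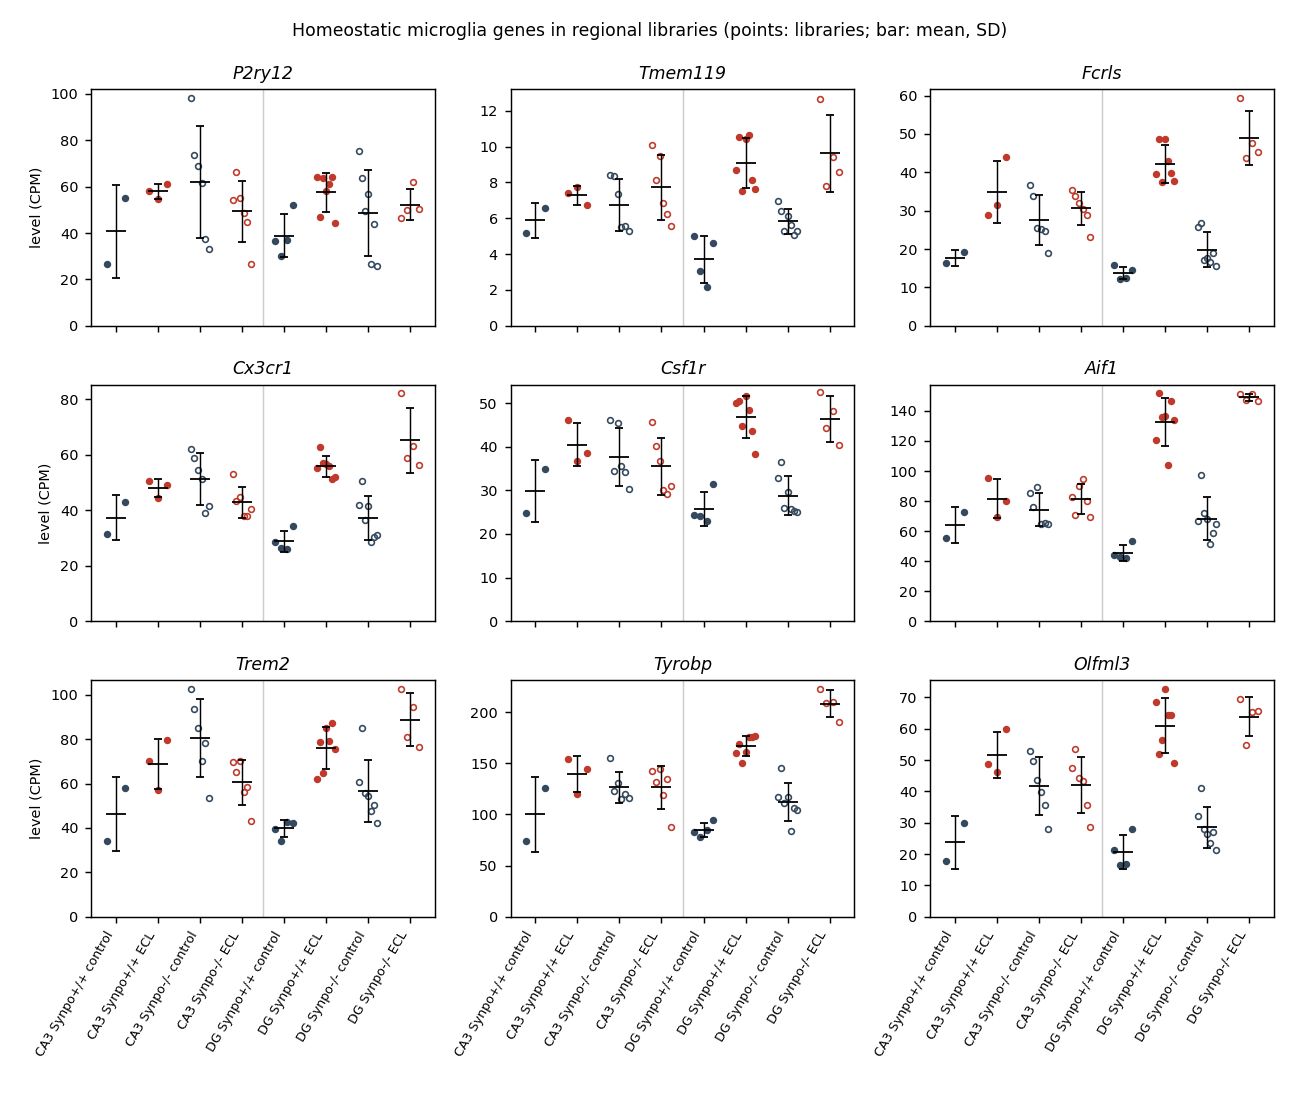
Level of each gene in CPM (y axis, linear from 0) in the 39 regional libraries, by group (x axis). Points are libraries, filled for Synpo+/+ and open for Synpo-/-, dark for control and red for ECL, with bars for the mean and SD; in the DG the red points stand above the dark ones for all genes but P2ry12 and, in Synpo-/-, Trem2, where they overlap, while in CA3 Synpo-/- the groups overlap for all 9.

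In the DG of cultures labelled Synpo-/- the lesion raised 8 of the 9 genes, and P2ry12 did not pass the test. There, 8 were called higher and 0 lower, against 8.53% of 23310 genes tested (5.17% higher). For 7 of the 9 the groups did not overlap, as for 5.42% of all genes with ECL higher; Trem2 and P2ry12 overlapped.

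Fcrls was at 15.7 to 26.9 CPM (median 17.6) in the 7 controls and at 59.3, 43.9, 47.6 and 45.2 CPM in the 4 ECL libraries, a change of 1.25 ± 0.15 (adjusted p = 9.54e-05). Aif1 was at 51.3 to 97.4 CPM (median 66.4) in controls and at 151, 147, 151 and 147 CPM after ECL, a change of 1.08 ± 0.13 (adjusted p = 0.00014). The 4 lesioned libraries were nearly equal in Aif1 and stood far above every control. Olfml3 changed by 1.11 ± 0.14, Tyrobp by 0.84 ± 0.12, Cx3cr1 by 0.76 ± 0.15, Tmem119 by 0.67 ± 0.15, Csf1r by 0.64 ± 0.12 and Trem2 by 0.60 ± 0.15, with adjusted p-values of 0.000201 to 0.0239.

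P2ry12, the ADP receptor by which microglial processes sense injury, spread widely over the controls. It was at 25.7 to 75.6 CPM (median 49.3) in DG controls and at 46.4, 50.0, 61.9 and 50.4 CPM after ECL, so that the lesioned libraries lay inside the control range and the change was 0.05 ± 0.24 (adjusted p = 0.95). The call on Trem2 was lost without ECL replicate 1 (adjusted p = 0.0957) or 3 (0.0665).

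The CA3 area of Synpo+/+ cultures showed the same direction in all 9 genes, and 2 passed the test. Olfml3 rose from 17.9 and 29.8 CPM to 48.8, 46.1 and 59.9 CPM, by 1.01 ± 0.20 (adjusted p = 0.0423), and Fcrls from 16.3 and 19.2 CPM to 28.9, 31.6 and 44.0 CPM, by 0.87 ± 0.19 (adjusted p = 0.0488). In this comparison 1.78% of 22340 genes were called (1.5% higher). The other 7 had log2 fold changes of 0.20 to 0.47 and adjusted p-values of 0.202 to 0.583.

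With 2 controls against 3 lesioned libraries the 2 calls were thin. Leaving out any 1 library moved the count of called genes to between 0 and 4: it was 0 without control replicate 1 or any 1 ECL library and 4 without control replicate 2, the control that stood above replicate 1 for all 9 genes. The groups did not overlap for 5 of the 9, a share set against 30.3% of all genes with ECL higher.

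In CA3 of cultures labelled Synpo-/- no gene was called in either direction, with 6 libraries on each side, and 0.077% of 20772 genes tested were called. At an unadjusted p under 0.05 there was 1, Trem2, beside 1510 of all genes, and DESeq2 called 0 of the 9. Trem2 was at 53.4 to 103 CPM (median 81.7) in control libraries and at 43.1 to 70.0 CPM (median 61.9) in ECL libraries (log2 fold change -0.41 ± 0.14, adjusted p = 0.533). Tyrobp was at 115 to 155 CPM (median 121) without lesion and 87.4 to 144 CPM (median 133) with it, a difference of 0.00 ± 0.11. P2ry12 ran from 33.2 to 98.1 CPM in controls and from 26.8 to 66.2 CPM after ECL (-0.34 ± 0.23, adjusted p = 0.821).

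**Figure D2:**
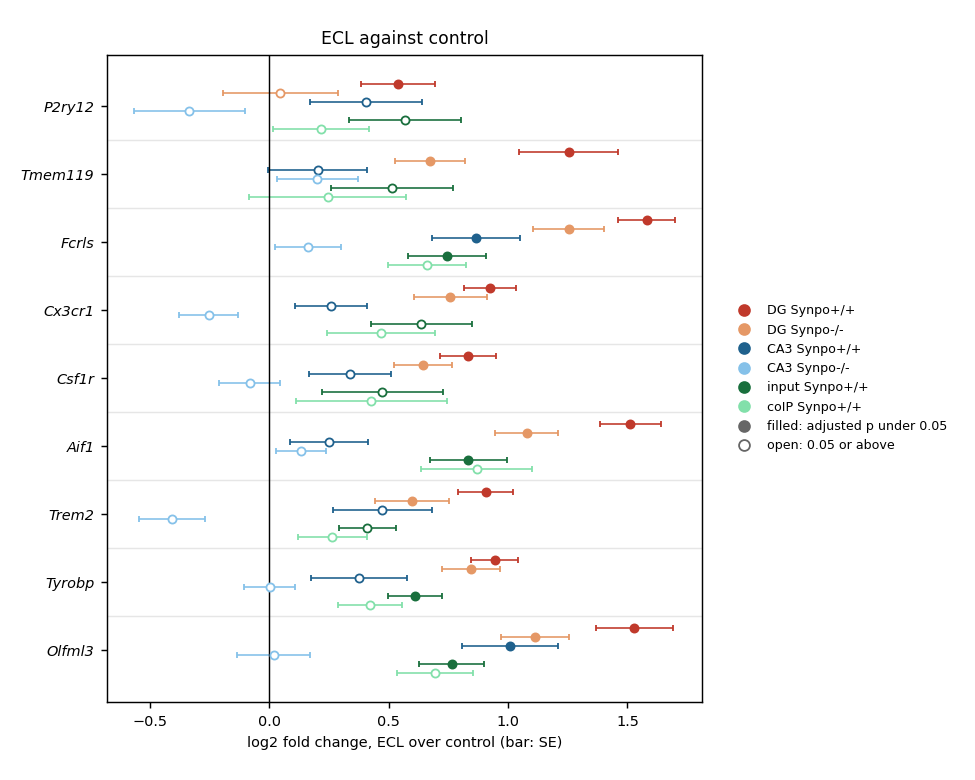
Log2 fold change of ECL over control (x axis) with its SE for each gene (y axis) in 6 comparisons, coloured by tissue and genotype; filled points had an adjusted p under 0.05. Synpo+/+ DG lies farthest right for all genes but P2ry12, whose 0.54 is beside 0.57 in the input, and CA3 Synpo-/- lies around 0.

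Whether the lesion effect differed between regions was tested as an interaction, with DG and CA3 libraries taken as separate. In libraries labelled Synpo-/- the DG change exceeded the CA3 change for 6 of the 9, Fcrls (1.07 ± 0.22), Olfml3 (1.07 ± 0.23), Cx3cr1 (0.99 ± 0.20), Trem2 (0.98 ± 0.23), Aif1 (0.92 ± 0.18) and Tyrobp (0.82 ± 0.18), with adjusted p-values of 0.0128 to 0.0275, where 1.12% of 25435 genes were called (0.877% higher). Csf1r (0.71 ± 0.19, adjusted p = 0.0574), Tmem119 (0.45 ± 0.23) and P2ry12 (0.36 ± 0.37) were not called. Markers of other cell types had the same term: 4 of 9 astrocyte markers were called, Gfap (1.18 ± 0.19), Gja1 (1.00 ± 0.18), Aldh1l1 (0.87 ± 0.12) and Aqp4 (0.64 ± 0.13), and 2 of 9 oligodendrocyte markers, Mag (1.32 ± 0.29) and Cnp (1.05 ± 0.22), all higher, against 0 of 7 border macrophage markers, and their part in the members' term was not tested. In Synpo+/+ libraries 0 of 9 were called and 0% of all genes, with 6 of the 9 at an unadjusted p under 0.05, as were 1240 of 27783 genes tested. Aif1 had the largest difference there, 1.22 ± 0.22 (adjusted p = 0.509), and was called without DG ECL replicate 5 (adjusted p = 0.0165). DESeq2 called 1 of the 9 with all libraries, Aif1.

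Between DG and CA3 controls the count of members called depended on the fit in libraries labelled Synpo-/-. By edgeR 0 of 9 were called in Synpo+/+ (5.39% of all genes). In it 1 had an unadjusted p under 0.05, as did 4521 of 25656 genes tested, and DESeq2 called 0. In libraries labelled Synpo-/- 1 of 9 was called (25.5% of all genes, 12.5% lower), Olfml3, which was lower in DG by a log2 of -0.44 ± 0.15 (adjusted p = 0.0378). There 5 of 9 had an unadjusted p under 0.05, as did 7743 of 21408 genes tested. Of the 9, 4 were called by DESeq2, 3 with RLE factors and 5 in the fit of all libraries, all lower in DG. The share of all genes called in those fits is not given here, so these counts are no result about the members. After ECL the DG stood above CA3 for Aif1 alone among the 9 in Synpo+/+ (0.77 ± 0.15, adjusted p = 0.0274), where 2.05% of all genes were called (1.54% higher). In that comparison 7 had an unadjusted p under 0.05, as did 4698 of 24029 genes tested. In libraries labelled Synpo-/- the DG stood above CA3 for 6 of the 9 (0.56 to 0.89, adjusted p-values of 3.99e-05 to 0.00896), where 13.6% of all genes were called (7.37% higher). These 6 were those with an interaction. Without DG ECL replicate 5 the Synpo+/+ comparison again called Aif1 alone (adjusted p = 9.65e-05), among 4746 genes in place of 492. DG and CA3 libraries did not overlap for 3 of the 9 in Synpo+/+ controls, Tmem119, Fcrls and Aif1, all lower in DG (13.7% of all genes), for Cx3cr1 and Aif1, higher in DG, in Synpo+/+ ECL (2.73%) and for the 6 in Synpo-/- ECL (7.04%).

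Between genotypes no member passed the test in any of the 4 settings, in which 0.00413%, 0.00891%, 0.0166% and 0.0166% of all genes were called (CA3 control, CA3 ECL, DG control and DG ECL). In DG controls all 9 estimates were higher in the libraries labelled Synpo-/-, by 0.13 to 0.61 on the log2 scale, and 7 had an unadjusted p under 0.05, as did 3746 of all 24143 genes tested. The adjusted p-values of those 7 were 0.207 to 0.303. Aif1 was at 42.0 to 53.6 CPM in Synpo+/+ and 51.3 to 97.4 CPM in Synpo-/- controls (0.55 ± 0.15, adjusted p = 0.207), and DESeq2 called it (adjusted p = 0.0378). The genotypes did not overlap for Tmem119 alone of the 9, at 2.17 to 4.99 CPM against 5.08 to 6.99 CPM, as for 1.09% of all genes with Synpo-/- higher. After ECL the DG estimates ran from -0.17 to 0.29, and Tyrobp alone did not overlap (0.369% of all genes did not, with Synpo-/- higher), at 151 to 176 CPM against 191 to 223 CPM (0.29 ± 0.09, adjusted p = 1). Of the 9, 1 had an unadjusted p under 0.05, as did 859 of 24100 genes tested, and DESeq2 called 0. Without DG Synpo+/+ ECL replicate 5 edgeR again called 0 of 9. Every genotype comparison rests on labels that the level of Synpo RNA did not bear out.

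In CA3 controls the estimates were 0.13 to 0.75, also all higher in libraries labelled Synpo-/-. By edgeR 0 of 9 were called, with 3 at an unadjusted p under 0.05, as were 3959 of 24203 genes tested. The 3 were led by Trem2 (0.74 ± 0.23, adjusted p = 0.159) and Olfml3 (0.75 ± 0.24, adjusted p = 0.164), and DESeq2 called these 2. In CA3 after ECL the estimates were -0.24 to 0.13, with 0 at an unadjusted p under 0.05 and 0 called by DESeq2. The interaction of genotype with lesion called 0 of 9 in CA3 (0% of all genes) and 0 of 9 in DG (0.00381%), also without DG Synpo+/+ ECL replicate 5. All 18 estimates were below 0, the side of a smaller change in libraries labelled Synpo-/-. The farthest were Olfml3 (-1.02 ± 0.32, adjusted p = 0.152) and Trem2 (-0.91 ± 0.30, adjusted p = 0.165) in CA3. Members correlate with each other and share the libraries of a region, in CA3 with 2 Synpo+/+ controls. Their common sign is therefore not 18 separate results. At an unadjusted p under 0.05 there were 4 in CA3, beside 4589 of 26821 genes tested, and 2 in DG, beside 2730 of 26245. DESeq2 called 0 in both.

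In the DG P2ry12 fell after ECL relative to the mean log2 level of the other members, but it was not alone in shifting. In DG Synpo+/+ it went from 0.66 to 0.02, while Fcrls went from -0.99 to -0.48, Olfml3 from -0.36 to 0.12 and Aif1 from 0.95 to 1.38. Cx3cr1, Csf1r, Trem2 and Tyrobp also fell, by less. In CA3 Synpo+/+ P2ry12 stayed, at 0.33 and 0.34, with the 2 controls at 0.07 and 0.60. In CA3 labelled Synpo-/- it went from 0.46 to 0.20, and the libraries overlapped. Counts of P2ry12 were set against those of another member within the same library, which removes library scaling. Aif1 was among the genes that rose most in DG Synpo+/+. In the DG Synpo+/+ controls there were 0.700 to 0.969 P2ry12 counts per Aif1 count, and after ECL 0.308 to 0.586, with no overlap. In DG libraries labelled Synpo-/- the ratio ran from 0.398 to 1.14 (median 0.684) in control and from 0.306 to 0.410 (median 0.341) in ECL libraries, with a small overlap. Against Tyrobp the ratio was 0.384 to 0.551 and 0.252 to 0.425 in Synpo+/+ DG, and 0.246 to 0.647 and 0.208 to 0.295 in DG labelled Synpo-/-. In CA3 Synpo+/+ the ratio to Aif1 was 0.481 and 0.758 in controls and 0.610 to 0.784 after ECL. No test was made of these ratios, which were chosen after the levels were seen.

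**Figure D3:**
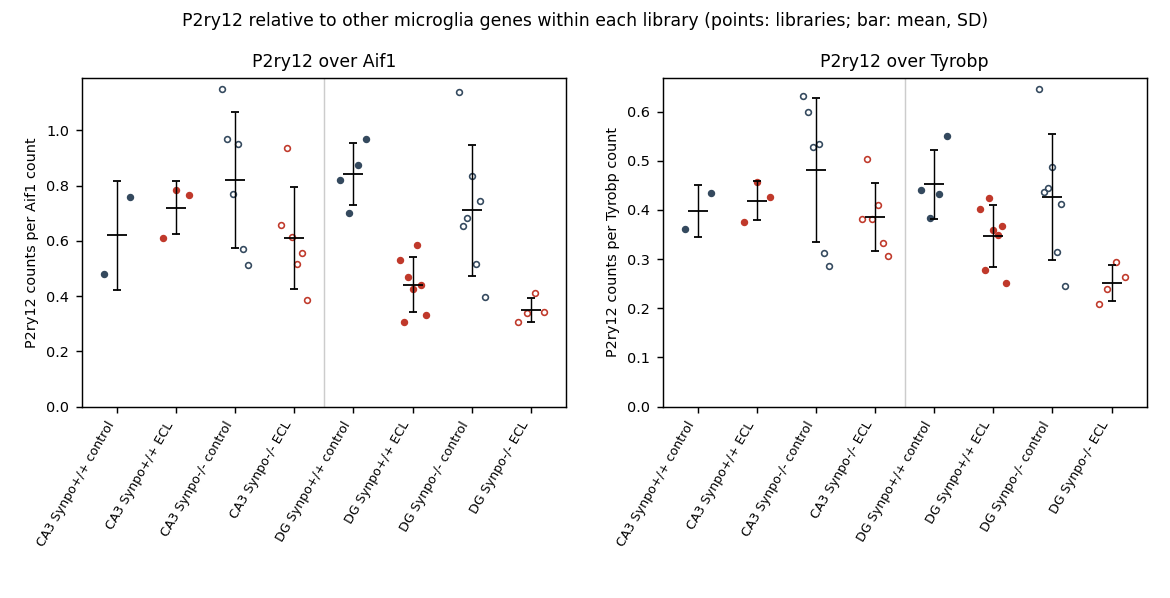
P2ry12 counts per Aif1 count (left panel, y axis) and per Tyrobp count (right panel, y axis) within each of the 39 regional libraries, by group (x axis); points are libraries, filled for Synpo+/+ and open for Synpo-/-, dark for control and red for ECL, with bars for the mean and SD. In the DG the ECL libraries sit at 0.306 to 0.586 P2ry12 counts per Aif1 count and the controls at 0.398 to 1.14, and the CA3 groups overlap.

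Across the 39 regional libraries the 36 pairs of members had Pearson correlations of log2 level from 0.451 to 0.959 (median 0.858), and from 0.363 to 0.851 (median 0.681) after the 8 group means were subtracted. Fcrls with Olfml3 was highest at 0.959. The 8 pairs that hold P2ry12 were the 8 lowest, at 0.451 with Aif1 to 0.717 with Trem2, yet within groups P2ry12 with Olfml3 stood at 0.851, the highest, and the lowest pair was Tmem119 with Aif1 at 0.363. In the 24 whole-culture libraries the pairs ran from -0.12, for Csf1r with Aif1, to 0.976 (median 0.699). These are descriptions: libraries share groups, depth and normalization.

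The genes most like the 9 in pattern included complement and lysosomal genes. Among 11495 genes with a mean of at least 5 CPM, the mean log2 level of the 9 was followed most closely by C1qb (r = 0.972, and 0.902 within groups) and Lcp1 (0.959 and 0.897), then Gusb, Fyb, C1qc, Cst7, Ctsh, Ctsz, Casp8 and Arhgdib, at r of 0.953 to 0.936. C1qb and C1qc encode chains of complement C1q, Lcp1 encodes the leukocyte actin-bundling protein plastin, Cst7 encodes the protease inhibitor cystatin F, and Ctsh and Ctsz encode lysosomal cathepsins. All 10 kept their place without DG Synpo+/+ ECL replicate 5. The median r over all 11495 genes was 0.247.

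A list of 20 other microglia genes moved with the 9. In DG Synpo+/+ after ECL 17 of 20 were called higher and 0 lower (median log2 fold change 0.80, against -0.00 over all genes tested), led by the integrin Itgam (1.25 ± 0.15, adjusted p = 0.000213), the leukotriene synthase Ltc4s (1.34 ± 0.17, adjusted p = 0.000252) and the prostaglandin synthase Hpgds (1.00 ± 0.13, adjusted p = 0.000356). In DG labelled Synpo-/- 11 of 20 were called higher and 0 lower (median 0.58), led by Ltc4s (1.06 ± 0.15), Itgam (1.21 ± 0.18) and the UDP receptor P2ry6 (0.89 ± 0.15). In CA3 it was 1 of 20 in Synpo+/+, Laptm5 (0.99 ± 0.20, adjusted p = 0.0412), a lysosomal membrane protein, and 0 of 20 in Synpo-/-.

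Of 17 ligands, partners and signalling genes of the members, 5 were called higher and 0 lower in DG Synpo+/+. They were Csf1, the ligand of Csf1r (0.84 ± 0.14, adjusted p = 0.00245), Nrros, which presents TGF-beta on microglia (1.36 ± 0.21, adjusted p = 0.00125), the phosphatases Ptpn6 (1.01 ± 0.21, adjusted p = 0.00956) and Inpp5d, and the G protein subunit Gnai2. In DG labelled Synpo-/- 4 were called higher, Csf1 (0.68 ± 0.13), Nrros (1.00 ± 0.21), Ptpn6 (0.70 ± 0.18) and the adaptor Hcst. Il34, the other ligand of Csf1r, and Cx3cl1, the ligand of Cx3cr1, were called in no lesion comparison.

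Genes known to rise in disease-associated microglia and genes of cell division were called in the same tissue. In DG Synpo+/+ 17 of the 19 tested disease-associated genes were higher, led by Ctsz (1.21 ± 0.11), Cd63 (1.08 ± 0.12) and Cd52 (0.96 ± 0.12), and in DG labelled Synpo-/- 16 of 20, led by the secreted phosphoprotein Spp1 (1.83 ± 0.16), Cd63 (0.90 ± 0.11) and Ctsd (0.92 ± 0.13). Of 18 proliferation genes 11 and 9 were higher, led by Birc5 (1.92 ± 0.18), Ccnb2 (1.70 ± 0.21) and Top2a (1.51 ± 0.20) in Synpo+/+ and by Mki67 (1.07 ± 0.14), Birc5 (1.09 ± 0.17) and Tyms (0.63 ± 0.11) in Synpo-/-. Csf1 is in both the ligand and the disease-associated list. In CA3 Synpo-/- neither list held a called gene, and none of the 4 lists held a gene called lower in a lesion comparison.

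Other cell types moved too. Border macrophage markers, 7 genes, summed to 29.0 to 42.8 CPM in DG Synpo+/+ controls and 24.8 to 80.0 CPM after ECL, and Pf4 (1.53 ± 0.36) and F13a1 (0.87 ± 0.21) were called of the 6 tested. In DG labelled Synpo-/- the sums were 33.6 to 69.6 and 71.3 to 102 CPM. Astrocyte markers, 9 genes, summed to 4693 to 5435 CPM in DG Synpo+/+ controls and 7254 to 9332 CPM after ECL, with 6 of 9 called higher, and to 5011 to 5907 and 7693 to 9837 CPM in DG labelled Synpo-/-, with 7 of 9 called higher. Markers of monocytes and neutrophils, 6 genes, stayed at sums of 0.286 to 2.53 CPM and those of lymphocytes, 6 genes, at 1.63 to 6.42 CPM in all regional libraries, with 1 marker called in the DG, Cd79b of B cells, higher in Synpo+/+ ECL. The part of border macrophages, monocytes, neutrophils and lymphocytes in the members' change was not tested. Mitochondrially encoded genes took 9.63% to 13.6% of counts in DG Synpo+/+ controls and 6.83% to 10.9% after ECL, and 8.97% to 11.8% and 6.54% to 8.20% in DG labelled Synpo-/-; the part of RNA quality was not tested.

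In the whole-culture input the lesion raised 4 of the 9, with all 9 estimates above 0. Olfml3 went from 40.0, 42.0, 54.3, 64.0 and 61.2 CPM to 78.1, 83.6, 87.2, 91.0 and 106 CPM, by 0.76 ± 0.14 (adjusted p = 0.00688), and Tyrobp from 41.7, 46.2, 50.5, 56.3 and 50.8 CPM to 62.1, 80.2, 65.0, 81.2 and 87.6 CPM, by 0.61 ± 0.11 (adjusted p = 0.00865). In both the lesioned pools all lay above the control pools. Aif1 changed by 0.83 ± 0.16 (adjusted p = 0.0108) and Fcrls by 0.74 ± 0.16 (adjusted p = 0.0189). The share over all genes was 5.61% of 17951 (2.45% higher), and the groups did not overlap for 4 of the 9 and for 3.27% of all genes. The other 5 had changes of 0.41 to 0.64 and adjusted p-values of 0.061 to 0.334, among them P2ry12 (0.57 ± 0.23, adjusted p = 0.19). The call on Fcrls was lost without ECL replicate 3 (0.0569) or control replicate 2 (0.0599).

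In the coIP libraries of the same pools 0 of 9 were called after ECL by edgeR, with 0.314% of 18449 genes called. At an unadjusted p under 0.05 there were 4 of 9, beside 2252 of all genes, and DESeq2 called 3 of 9 (Fcrls, Aif1 and Olfml3). The share of all genes that DESeq2 called there is not given here. The estimates ran from 0.22 ± 0.20 for P2ry12 to 0.87 ± 0.23 for Aif1, and the groups did not overlap for Tyrobp and Olfml3, 2 of the 9, and for 1.18% of all genes with ECL higher. The difference between the lesion effects in coIP and input called 0 of 9 and 0% of all genes, with 0 of 9 at an unadjusted p under 0.05 and 0 by DESeq2, and its estimates lay between -0.33 and 0.06. In the input 6 of 20 other microglia genes were called higher, led by the transcription factor Sall1 (0.94 ± 0.16), Itgam (0.91 ± 0.20) and Hpgds (0.73 ± 0.17), and in the coIP 1, Hpgds (0.66 ± 0.13). Proliferation genes were also called higher, led by Ccnb2 (2.30 ± 0.20), Ccnb1 (2.78 ± 0.25) and Cenpf (1.90 ± 0.20) in the input. In the coIP they were led by Mki67 (1.53 ± 0.17), Ccnb1 (2.73 ± 0.33) and Cenpf (2.14 ± 0.26). Disease-associated genes were led by Clec7a (1.22 ± 0.11), Ctsz (0.74 ± 0.10) and Cst7 (0.90 ± 0.13) in the input. In the coIP Spp1 (1.04 ± 0.16) and Ctsz (0.55 ± 0.10) were called higher.

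The Synpo-coIP held less of most of these transcripts than its input. In Synpo+/+ control cultures 4 of 9 were called lower and 0 higher, and in Synpo+/+ ECL cultures 7 lower and 0 higher, in comparisons where 55% and 58.3% of all genes were called (25.5% and 27.8% lower), so that a call by itself says little here. The sizes differed widely between the members.

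Aif1 had the largest difference. In control pools it was at 28.1, 25.8, 40.1, 42.0 and 36.5 CPM in input and at 6.28, 9.45, 9.81, 9.47 and 11.2 CPM in coIP, a log2 of -1.88 ± 0.17 (adjusted p = 8.02e-07). In lesioned pools it was at 44.3, 58.7, 66.5, 61.6 and 78.0 CPM in input and at 20.3, 8.76, 18.3, 12.7 and 23.6 CPM in coIP, a log2 of -1.87 ± 0.22 (adjusted p = 1.25e-05). Tyrobp followed with -1.08 ± 0.12 and -1.29 ± 0.13. Every coIP library lay below every input library of its group for both genes. That held for 3 of the 9 in each condition, and for 19.7% and 20.3% of all genes.

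Csf1r went the other way. It was at 29.3, 31.8, 65.8, 62.9 and 78.4 CPM in control input and at 47.1, 36.8, 114, 101 and 107 CPM in the coIP of the same numbers, higher in 5 of 5 pairs, by 0.61 ± 0.33 (adjusted p = 0.122), and higher in 4 of 5 lesioned pairs, by 0.55 ± 0.24 (adjusted p = 0.0631). Csf1r also shares the most exon bases with a gene on the other strand. Since input and coIP of a number come from the same lysate, the fit with the replicate number as a block took out the spread between lysates. With that replicate block 8 of 9 were called in control pools, 7 lower and Csf1r higher (0.58, adjusted p = 1.63e-05), and 9 of 9 in lesioned pools, 8 lower and Csf1r higher (0.49, adjusted p = 0.011). Even without the block 55% and 58.3% of all genes were called in control and lesioned pools, so these counts by themselves say little.

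Exon length ran with the difference only in part. Tyrobp, at 667 bases, and Aif1, at 1532, are the shortest of the 9 and lay lowest in coIP, Aif1 below the shorter Tyrobp. Csf1r (5774 bases) lay highest and Olfml3 (6161 bases), the longest, was at -0.41 ± 0.17 in control pools. The genes of lengths between did not rise with length there: Tmem119 (2315 bases) was at -0.30, Fcrls (2334) at -0.16, P2ry12 (2546) at -0.56, Cx3cr1 (4505) at -0.36 and Trem2 (4946) at -0.44. When the length trend of each library was removed along with the block, Aif1 was at -1.30 (adjusted p = 2.01e-08) and Tyrobp at -0.32 (adjusted p = 0.00538) in control pools, and Fcrls turned from -0.16 to 0.22 (adjusted p = 0.0173). Mitochondrial shares also differed between the fractions, as given above.

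**Figure D4:**
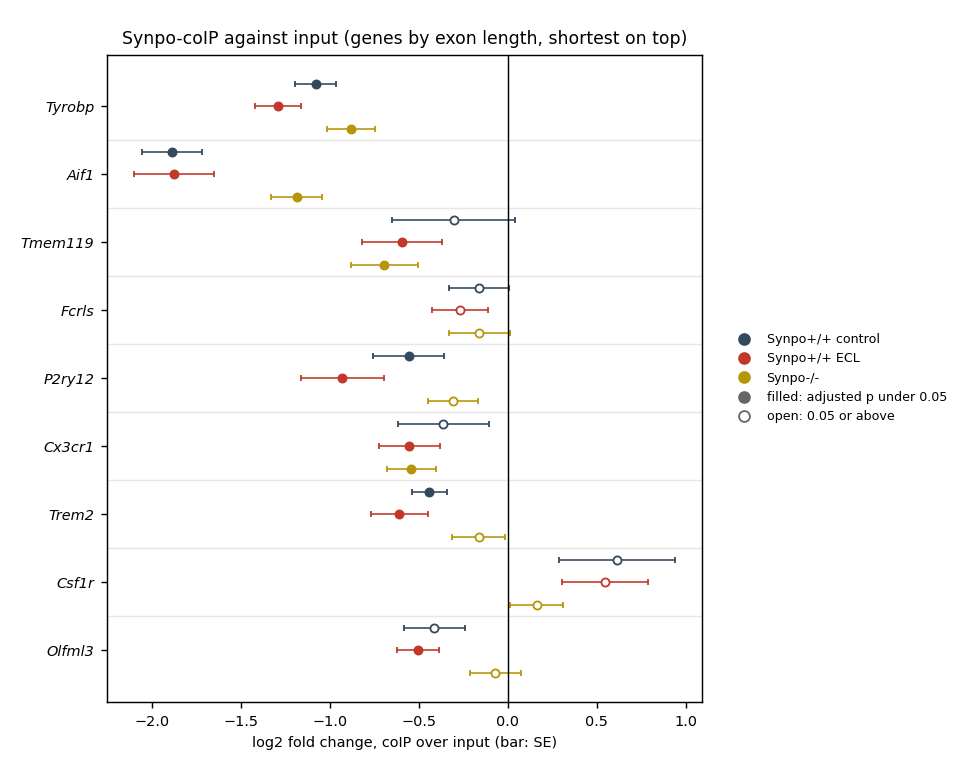
Log2 fold change of coIP over input (x axis) with its SE for each gene, ordered by exon length with the shortest on top (y axis), in Synpo+/+ control, Synpo+/+ ECL and Synpo-/- libraries; filled points had an adjusted p under 0.05. Aif1 and Tyrobp lie at -0.88 or below in all 3, and Csf1r lies above 0 in all 3.

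In the libraries labelled Synpo-/- the order was similar. With 2 inputs and 2 coIP libraries, 4 of 9 were called lower and 0 higher, against 31.4% of 20892 genes (16.4% lower). Aif1 was at 58.1 and 58.4 CPM in input and 27.4 and 25.0 CPM in coIP (-1.19 ± 0.14, adjusted p = 0.000249), Tyrobp at 70.5 and 74.0 CPM against 39.8 and 40.6 CPM (-0.88 ± 0.13, adjusted p = 0.000701), and Tmem119 (-0.69 ± 0.19) and Cx3cr1 (-0.54 ± 0.14) were also called. The fractions did not overlap for 5 of the 9 and for 31.8% of all genes with coIP lower. Between 2 and 5 were called when 1 library was left out, with 2 without input replicate 1. The difference of the fraction effect between genotypes, tested against Synpo+/+ controls, called 0 of 9 and 0% of all genes. At an unadjusted p under 0.05 there was 1, Aif1 (0.75 ± 0.27, adjusted p = 0.576), beside 1511 of 20621 genes tested, and DESeq2 called 0.

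Across the 8 regional groups the lowest mean was in DG Synpo+/+ controls for all 9 genes. The highest was in DG Synpo-/- ECL for 7, in DG Synpo+/+ ECL for Csf1r (46.8 ± 4.81 CPM, SD, n = 7) and in CA3 Synpo-/- controls for P2ry12 (62.1 ± 24.1 CPM, SD, n = 6). From lowest to highest mean the fold was 3.55 for Fcrls, 3.26 for Aif1, 3.09 for Olfml3 and 1.60 for P2ry12. Neighbours in the order of means mostly overlapped. Of 7 neighbouring pairs a gene, 2 did not overlap for Aif1, 1 each for Fcrls, Tmem119 and Tyrobp, and 0 for the other 5. For Aif1 the wide gap lay between CA3 Synpo+/+ ECL (81.6 ± 12.8 CPM, SD, n = 3) and DG Synpo+/+ ECL (133 ± 16.0 CPM, SD, n = 7).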

How the data were processed

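Polyadenylated RNA was sequenced from 39 regional isolates and from 24 input and coIP samples of pooled cultures. The authors deposited whole-number read counts per gene symbol, not normalized. Per the submitters' processing notes these were made with cutadapt 3.5, STAR 2.7.8a and featureCounts 2.0.1 on mm10, and the counting is not stated to use strand. The tables hold 55291 symbols.

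From the counts, edgeR 4.0.16 (R 4.3.3) was run within the groups of each comparison: filterByExpr, TMM factors, quasi-likelihood test, Benjamini-Hochberg adjustment over all genes tested and a threshold of 0.05. SE is the log2 fold change divided by the root of the F statistic. Levels are CPM on TMM-scaled library sizes within each experiment, and the experiments are not compared. DESeq2 1.42.0, RLE factors, no filter, a mean normalized count over 300, removal of each library's gene length trend, a replicate block, a fit of all libraries and leaving out single libraries were tried as alternatives. The fits were tested on simulated counts.

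All 9 genes were followed in every comparison. Of each further list, up to 3 called genes per direction with the smallest p are given, and the other called genes of counts up to 5 are named too. The genes most like the members are the 10 with the highest correlation to their mean. Members and lists were chosen with earlier results of these data known. Labels do not say that all libraries of a group come from separate animals, so p-values measure the spread between these samples. Input and coIP libraries of a number come from the same lysate, and their deviations from the group means correlated at 0.302 to 0.637 in Synpo+/+ control and 0.156 to 0.627 in Synpo+/+ ECL pools (5 of 5 pairs over 0.1 in each). Over 130 pairs of libraries of the same group, no pair agreed within sampling noise. RefSeq starts were searched for fixed words on both strands.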

Additional observations from a re-analysis of the deposited data

Results flagged for a closer look

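In 90 sets of 1 gene in 1 group, each of 4 to 7 libraries, 2 held a library set apart from its group by Dixon's test, where chance gives about 1 in 20. The genes reuse the same libraries, so the sets are not separate. Csf1r stood at 31.6 CPM in DG Synpo+/+ control replicate 4, against 22.9 to 24.3 CPM in the other 3. Tyrobp stood at 155 CPM in CA3 Synpo-/- control replicate 1, against 115 to 130 CPM in the other 5.

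The lesion effect differed between DG and CA3 in libraries labelled Synpo-/- by edgeR's interaction test, with DG higher, for 6 genes: Fcrls by 1.07, Olfml3 by 1.07, Cx3cr1 by 0.99, Trem2 by 0.98, Aif1 by 0.92 and Tyrobp by 0.82 on the log2 scale, with adjusted p-values of 0.0128 to 0.0275. The astrocyte markers Aldh1l1 (0.87, adjusted p = 0.00118), Gfap (1.18, 0.0026), Gja1 (1.00, 0.0054) and Aqp4 (0.64, 0.0128) and the oligodendrocyte markers Cnp (1.05, 0.0162) and Mag (1.32, 0.0194) had the same term, and their part was not tested.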

How the results depend on the processing

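Counts of the 9 genes called moved by more than 1.5 times in the following cases. The 2 calls after ECL in CA3 Synpo+/+ became 0 with RLE factors, 0 with the gene length trend removed, which moved the median of all genes to -0.14, and 0 in the fit of all libraries, and ran from 0 to 4 when 1 library was left out, where a lone control is assumed to vary like the other group. Between genotypes, 0 became 2 in CA3 controls with DESeq2 and 4 with no filter, and 1 in DG controls with DESeq2 and 1 with no filter. Between regions in Synpo-/- controls, 1 became 4 with DESeq2, 3 with RLE factors, 2 with no filter and 5 in the fit of all libraries, all lower in DG. The region by lesion term in Synpo+/+ went from 0 to 1 with DESeq2 and to 1 without DG ECL replicate 5. The lesion in coIP went from 0 to 3 with DESeq2, 3 with no filter, 1 with the length trend removed and 2 in the fit of all libraries. The fraction comparison in Synpo-/- went from 4 to 2 in the fit of all libraries and ran from 2 to 5 when 1 library was left out. Shares of all genes called under these alternatives are not given here, so the counts alone do not set the members apart. The cause was not tested in any of these.

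With the replicate block, the fraction comparison in Synpo+/+ controls went from 4 to 8 genes, and to 8 with the length trend removed as well, where Fcrls turned to 0.22. Without the block 55% of all genes were called there. In the other comparisons the labels give no more than a shared number. With the block the lesion in DG Synpo-/- gave 4 in place of 8. The genotype in CA3 controls gave 5 (2232 of all genes in place of 1) and the region in Synpo+/+ ECL 3 (4999 of all genes in place of 492). The region in Synpo-/- controls gave 4 and the genotype by lesion term in CA3 1. In none of the first 4 did every same-numbered pair correlate over 0.1, and the last was not checked. For the region in Synpo-/- controls, though, 5 of 6 pairs did, at 0.0693 to 0.437 over the 6, and 3 matched their own number best. The labels do not say whether DG and CA3 libraries of a number came from the same culture. Without the block the region and region by lesion comparisons take them as separate. Another numbering of the Synpo-/- inputs, chosen after the data were examined, gave 4.

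Leaving out 1 library gave 8 to 9 genes after ECL in DG Synpo+/+, 7 to 8 in DG Synpo-/-, 0 to 0 in CA3 Synpo-/-, 3 to 5 in input, 0 to 0 in coIP, 3 to 5 for the fraction in Synpo+/+ controls and 6 to 7 in Synpo+/+ ECL. It was not run for the genotype, region and interaction comparisons other than for DG ECL replicate 5. Of 2079 single-gene values under an alternative, 1943 stayed on their side of the threshold, among them 53 uncalled values that changed sign, 81 passed it anew, 54 no longer passed it and 1, Fcrls above, passed it with the opposite sign. The CA3 Synpo+/+ lesion and Synpo-/- fraction comparisons rest on 2 libraries in a group.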
